A study of Homo sapiens with 24 samples.

Results

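RT112 bladder cancer cells were compared between arrays with a high and arrays with a low signal of GAS1, among arrays on which the TACC3 signal was high. Of the 24 arrays of the series, 9 enter the comparison. The GAS1-high side holds 3 arrays, those labelled 2-4 with doxycycline replicate 3, 6-16 with doxycycline replicate 3 and 4-1 without doxycycline replicate 3. The unmarked side holds 6 arrays, those labelled EGFP with doxycycline replicates 1 and 2, 2-4 with doxycycline replicate 1, 6-16 with doxycycline replicate 1, 4-1 with doxycycline replicate 3 and 2-4 without doxycycline replicate 1. Both sides were chosen by their measured levels and not by their labels. All levels are log2 values of the array signal. TACC3 had to be above a cut on both sides, which lies between 11.43, the highest of the 9 arrays under it, and 11.82, the lowest of the 15 arrays above it. GAS1 had to be above 7.5 on the GAS1-high side. The unmarked side had GAS1 under 7.5, ARMCX3 above 7 and FGFR3 above a cut of the same height as that of TACC3 on its brighter probe set. "Unmarked" means that none of these marker levels set the 6 arrays apart.

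RT112 is an established cell line from a human bladder carcinoma, and the cells of all arrays carried a hairpin RNA that doxycycline switches on. According to the labels, the FGFR3 hairpins 2-4, 4-1 and 6-16 were each in a line of their own, and a hairpin against EGFP, a gene that human cells lack, was in the control line. Each line was kept for 48 h in 1% serum with doxycycline at 1 µg/ml or without it, which gave 8 labelled groups of 3 arrays. The sources used here do not give whether a line was 1 clone or a pool of cells, or whether replicates came from separate cultures.

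GAS1 encodes a protein tied to the outer cell membrane by a lipid anchor. It was named for its expression in cells that have stopped growing, and it acts with CDON and BOC as a co-receptor of Hedgehog ligands beside the receptor PTCH1. It is also related to the receptors of the GDNF family. FGFR3 is a tyrosine kinase at the cell membrane that binds fibroblast growth factors and is often mutated or fused in urothelial tumours, and RT112 cells are known to carry a fusion of FGFR3 with TACC3, which encodes a protein of the mitotic spindle.

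In 6 of the 8 labelled groups the 3 arrays fell into 3 different sets by TACC3, FGFR3, ARMCX3 and GAS1, and in the other 2 groups into 2 sets. The array labelled 2-4 with doxycycline had an FGFR3 level of 12.34 as replicate 3, on the GAS1-high side, and of 12.08 as replicate 1, on the unmarked side. The array labelled 2-4 without doxycycline replicate 1 had 12.04. A doxycycline label stood on 2 of 3 GAS1-high arrays and 5 of 6 unmarked arrays (Fisher's exact test, two-sided p = 1.00). An FGFR3 hairpin label stood on 3 of 3 GAS1-high arrays and 4 of 6 unmarked arrays (Fisher's exact test, two-sided p = 0.5). With these margins the smallest p either of these tests could give was 0.0833, so neither could have passed 0.05. The replicate number 3 stood on 3 of 3 GAS1-high arrays and 1 of 6 unmarked arrays, a comparison made after the arrays of each side were known (Fisher's exact test, two-sided p = 0.0476, Benjamini-Hochberg adjusted p = 0.143 over the 3 label tests). The sources used here do not say what a replicate number marks. What the cells of an array had received is therefore given below only as its label, and each array is called by that label.

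The levels that chose the arrays were as follows, and they are a description with no test. GAS1 was 9.14, 8.52 and 9.02 on the GAS1-high arrays 2-4, 6-16 and 4-1, against a lowest, median and highest level of 6.25, 6.36 and 6.45 on the unmarked arrays. The 3 arrays averaged 8.90 ± 0.33 (SD, n = 3) and the 6 arrays 6.36 ± 0.071 (SD, n = 6), a difference of 2.53 or 5.79-fold. The GAS1-high arrays were all above the unmarked ones, and the 6-16 array was the lowest of the 3. Over the whole series, the 18 arrays at or under the GAS1 cut lay between 5.39 and 6.51, so that no array lay near the cut. TACC3 was 12.27, 12.12 and 12.09 on the GAS1-high arrays and 11.83, 11.94 and 12.12 as lowest, median and highest on the unmarked arrays, and the sides overlapped.

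**Figure D1:**
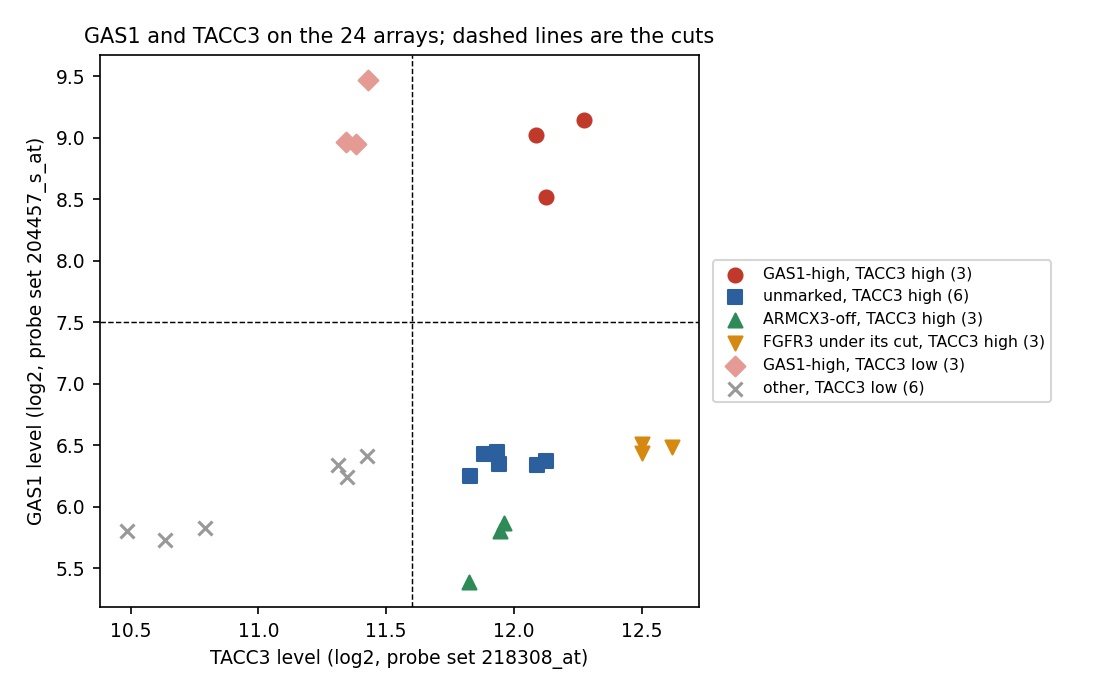
GAS1 (vertical axis) against TACC3 (horizontal axis), both as log2 levels, on each of the 24 arrays, with 1 point per array, a marker for each set and dashed lines at the 2 cuts. The 3 GAS1-high arrays with high TACC3 lie between 8.52 and 9.14 in GAS1, above the 6 unmarked arrays at 6.25 to 6.45.

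On its brighter probe set FGFR3 was 12.34, 12.30 and 12.27 on the GAS1-high arrays, against 11.92, 12.02 and 12.08 on the unmarked arrays. On the dimmer probe set it ran from 10.80 to 10.95, against 10.34 to 10.67. Both probe sets were thus higher on the GAS1-high arrays with no overlap, by 0.29 on the brighter one. ARMCX3, which encodes a protein of the mitochondrial outer membrane, was 9.84, 9.63 and 9.85 on the GAS1-high arrays, against 9.50, 9.61 and 9.65 on the unmarked arrays, and these overlapped. In bulk RNA, fewer cells with a transcript and less of it per cell cannot be told apart, here or in any value below.

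Over 19775 genes, a gene is called apart where the 3 and the 6 arrays did not overlap and their means differed by at least 1 on the log2 scale, that is 2-fold. Because the sides were selected on measured levels of these same arrays, the counts carry no p-value. There were 21 genes apart and higher on the GAS1-high arrays, 0.106% of all genes, and 21 apart and lower, also 0.106%. Every gene with a mean difference of that size was free of overlap. Without a minimum size, 856 genes (4.33%) were higher on all 3 GAS1-high arrays than on all 6 unmarked ones, and 623 (3.15%) were lower on all 3. The median difference over all genes was -0.0013. Just inside the limit lay QPRT at -1.003, PTX3 at -1.01, NMNAT2 at 1.02 and BEX2 at 1.02. Just outside it lay PADI3 at 0.998, RAB36 at 0.98, APCDD1 at 0.96 and ZNF462 at 0.96.

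The 42 genes had a median difference of 1.29 in size, and 9 of them differed by 2 or more. The GAS1-high arrays were alike in their detail. Over the 701 genes with an SD above 0.4 across the series, the correlation between arrays was 0.995 to 0.998 within the GAS1-high side and 0.995 to 0.998 within the unmarked side, against 0.954 to 0.964 between the sides. With the 3 arrays that had high GAS1 but low TACC3, described below, the GAS1-high side correlated at 0.929 to 0.934. These coefficients run across genes, which are not independent, and all arrays share a normalization. The array labelled 6-16 with doxycycline was the GAS1-high array nearest to the unmarked mean for 24 of the 42 genes, that labelled 4-1 without doxycycline for 11 and that labelled 2-4 with doxycycline for 7.

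The promoters of GAS1, POGLUT3 and EPHX4 are shown, because GAS1 defines the sides and the other two are among the genes with the widest difference in signal, one in each direction. Each run covers 250 bases before and 50 bases after the gene's start as RefSeq gives it on GRCh38.p14, at chr9:86947457-86947756 on the minus strand for GAS1, chr11:108498335-108498634 on the minus strand for POGLUT3 and chr1:92029735-92030034 on the plus strand for EPHX4. Capitals mark the dinucleotide CG.
GAS1: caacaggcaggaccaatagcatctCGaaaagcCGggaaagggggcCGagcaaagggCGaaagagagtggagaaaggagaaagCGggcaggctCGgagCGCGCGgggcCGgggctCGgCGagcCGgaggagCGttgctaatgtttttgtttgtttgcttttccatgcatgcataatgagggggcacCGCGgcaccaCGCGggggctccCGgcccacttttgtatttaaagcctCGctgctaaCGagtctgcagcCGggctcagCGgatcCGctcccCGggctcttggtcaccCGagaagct
POGLUT3: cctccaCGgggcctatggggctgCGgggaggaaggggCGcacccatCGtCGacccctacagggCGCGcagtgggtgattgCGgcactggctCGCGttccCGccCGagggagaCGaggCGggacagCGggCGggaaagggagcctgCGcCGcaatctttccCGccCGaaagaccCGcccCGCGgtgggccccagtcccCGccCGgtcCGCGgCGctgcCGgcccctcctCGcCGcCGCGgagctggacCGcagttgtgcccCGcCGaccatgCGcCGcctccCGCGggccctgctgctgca
EPHX4: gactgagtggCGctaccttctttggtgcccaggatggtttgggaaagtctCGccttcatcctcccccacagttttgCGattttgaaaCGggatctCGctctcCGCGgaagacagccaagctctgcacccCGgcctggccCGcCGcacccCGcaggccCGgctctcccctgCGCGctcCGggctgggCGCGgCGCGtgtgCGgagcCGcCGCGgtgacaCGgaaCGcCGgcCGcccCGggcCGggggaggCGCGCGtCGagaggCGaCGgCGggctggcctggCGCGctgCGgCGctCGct
The GAS1 window held 26 CG, a number that 30.1% of the 35116 promoters in the table reach or pass. The median of these 35116 promoters is 14 CG. The POGLUT3 window held 40, which 7.61% reach or pass, and the EPHX4 window 41, which 6.70% reach or pass. These shares are over all promoters in the table and not over the measured genes, whose median is higher. The median was 18 CG for the 17 of 21 higher genes and 18 for the 19 of 21 lower genes that the table holds, against 22 for the 15384 measured genes in it. The dinucleotide reads the same on both strands, and its number in a window is a description of the sequence and not of its methylation, which was not measured.

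The values used hold no detection calls, and a low array signal is in part background, so a fold below is a ratio of signals, and a difference for a gene that is dim on one side is limited by that background. Among the genes higher on the GAS1-high arrays, several encode secreted or matrix proteins. EFEMP1, a fibulin of the extracellular matrix, was 9.63, 9.48 and 9.69 on the GAS1-high arrays, against a lowest, median and highest level of 6.09, 6.19 and 6.37 on the unmarked ones, 10.6-fold higher. PLAU, the urokinase that turns plasminogen into plasmin, was 8.01, 7.99 and 8.10, against 6.52, 6.76 and 7.05, 2.40-fold higher. COL4A4, a chain of the type IV collagen of basement membranes, was 8.46, 8.23 and 8.55, against 6.82, 7.20 and 7.37. For all 3 genes the sides were free of overlap, and the gap between their nearest arrays was widest for EFEMP1, at 3.12. IGFBP6, which binds insulin-like growth factors with a preference for IGF-II, was 10.20, 9.996 and 10.19, against 8.81, 8.96 and 9.21. High levels of PLAU and COL4A4 were not particular to the GAS1-high arrays. On the high-TACC3 arrays with low ARMCX3, described below, they averaged 8.60 and 8.68, above their GAS1-high means of 8.03 and 8.41. On the high-TACC3 arrays under the FGFR3 cut they averaged 6.81 and 6.68.

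Other higher genes encode proteins of the membrane or the cell surface. GABRP, a subunit of the GABA-A receptor found in epithelia, was 9.39, 9.09 and 9.38 on the GAS1-high arrays, against 7.05, 7.29 and 7.39 on the unmarked arrays, 4.08-fold higher. SUSD5, a protein with a sushi domain, was 5.86, 5.41 and 6.44, against 4.14, 4.19 and 4.27. Its 3 GAS1-high levels spread more widely than its 6 unmarked ones. CLIC3, of the chloride intracellular channel family, was 10.57, 10.34 and 10.70, against 8.90, 9.22 and 9.51. TM4SF1, a 4-span membrane protein of epithelial tumours, was 12.52, 12.34 and 12.48, against 11.31, 11.34 and 11.39. CD109, which like GAS1 is held by a lipid anchor and binds TGF-beta, was 8.60, 8.09 and 8.67, against 7.12, 7.46 and 7.69. The gap between the nearest arrays of the sides was 0.95 for TM4SF1, while that of CD109 was the narrowest of the higher genes, at 0.40. TM4SF1 and CD109 were named after their values were seen.

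Among higher genes that act inside the cell, POGLUT3 encodes an enzyme of the endoplasmic reticulum that puts glucose on EGF-like repeats, a domain that NOTCH receptors and fibulins carry. Its level was 7.77, 7.85 and 8.18 on the GAS1-high arrays, against 4.34, 4.46 and 4.75 on the unmarked arrays, a difference of 3.45. A signal as low as that of the unmarked arrays may be background, so no fold is given. FABP5, a carrier of fatty acids, was 8.998, 8.87 and 9.17, against 6.60, 6.84 and 7.06, 4.50-fold higher. CALD1, the actin-binding protein caldesmon, was 8.73, 8.44 and 8.89, against 6.25, 6.70 and 7.18, 3.93-fold higher. TRIM22, an interferon-inducible antiviral protein, was 7.33, 6.76 and 6.99, against 5.45, 5.62 and 5.75. None of these 4 genes had a GAS1-high array within 1 log2 unit of an unmarked one. For CALD1 the unmarked arrays lay at 6.95 to 7.18 or at 6.25 to 6.44, and none near the median. The higher ones were labelled EGFP, 2-4 and 6-16 with doxycycline, each replicate 1. They were also the higher ones for CLIC3, at 9.38 to 9.51 against 8.90 to 9.05. For CD109 they were at 7.61 to 7.69 against 7.12 to 7.31. For POGLUT3 and GABRP they overlapped the others. This split was not counted over all genes. The other higher genes, which the rule for naming did not take and which are named after their values were seen, were NUAK1, SORBS2, VWDE, PWWP3B, ZNF677 and NMNAT2, with differences of 1.02 to 1.11. BEX2, which the rule took for its likeness to GAS1, differed by 1.02.

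**Figure D2:**
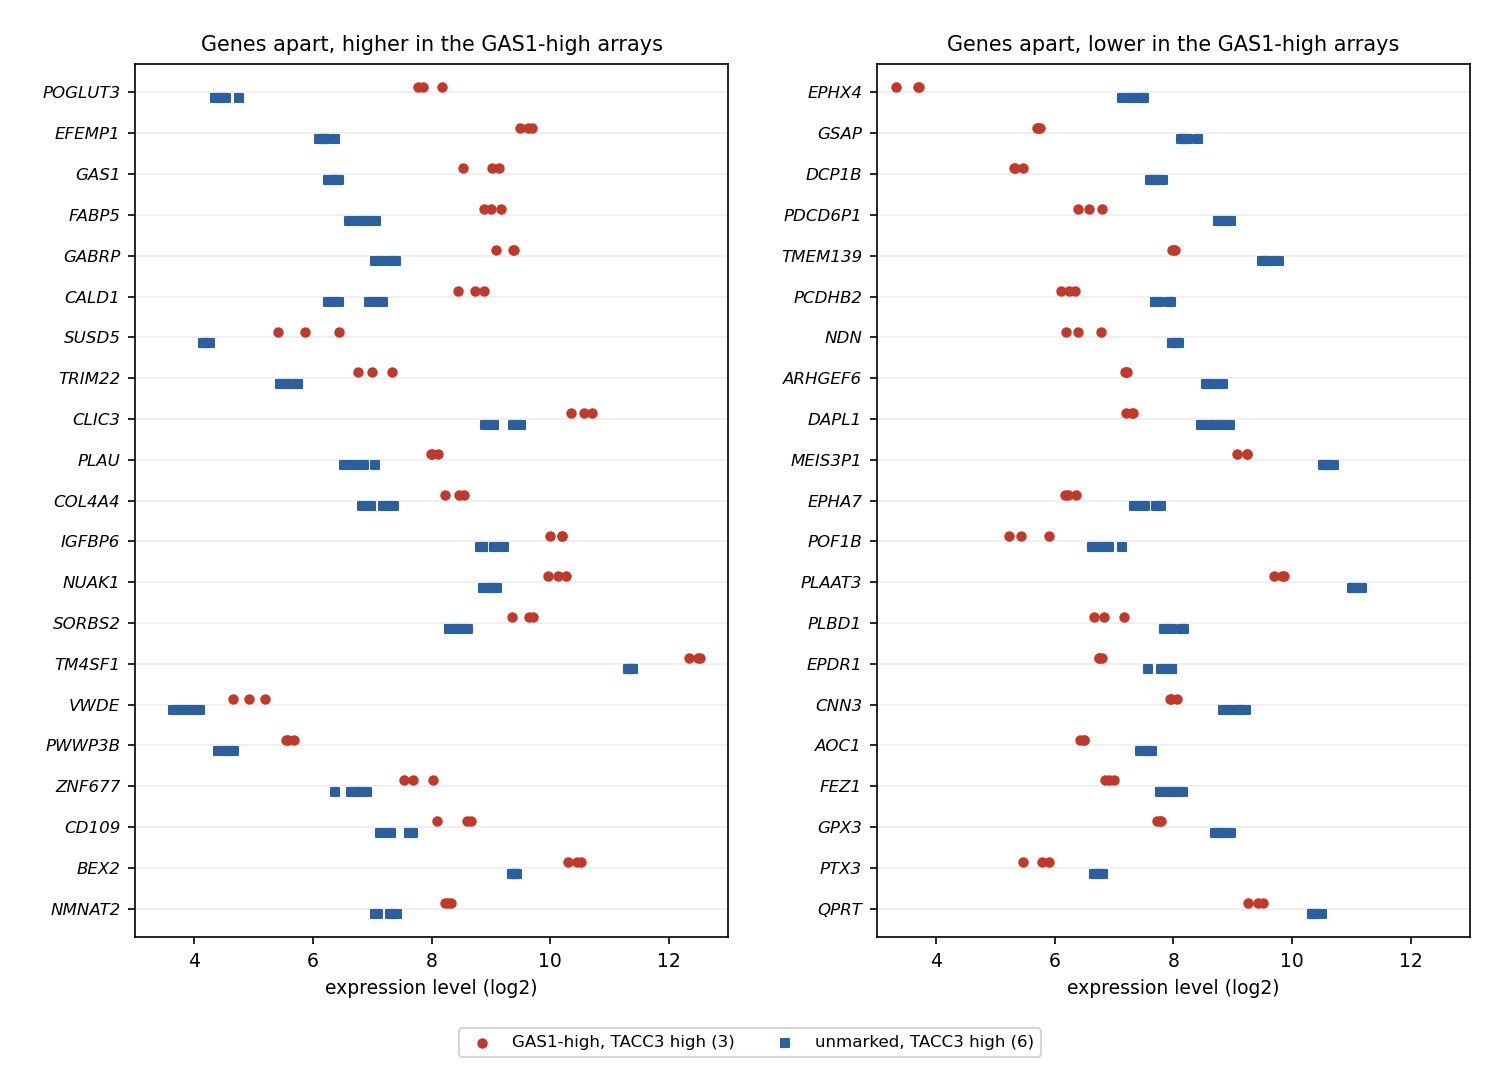
Log2 expression level (horizontal axis) of the 21 genes apart and higher (left panel) and the 21 apart and lower (right panel) on the GAS1-high arrays, with 1 circle per GAS1-high array above 1 square per unmarked array. POGLUT3 lies at 7.77 to 8.18 on the GAS1-high arrays against 4.34 to 4.75 on the unmarked ones, and EPHX4 at 3.32 to 3.72 against 7.14 to 7.51.

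On the lower side, EPHX4 encodes a member of the epoxide hydrolase family. Its level was 3.72, 3.70 and 3.32 on the GAS1-high arrays, against a lowest, median and highest level of 7.14, 7.38 and 7.51 on the unmarked arrays, with a gap of 3.42 between the nearest arrays of the sides. Its signal on the GAS1-high arrays may likewise be background, so no fold is given. GSAP, named as an activator of gamma-secretase, was 5.70, 5.73 and 5.75, against 8.13, 8.18 and 8.41, 5.61-fold lower. DCP1B, a cofactor of the enzyme that removes the cap from mRNA, was 5.32, 5.47 and 5.33, against 7.60, 7.68 and 7.83, 5.01-fold lower. The gaps between the nearest arrays of the sides were 2.37 for GSAP and 2.13 for DCP1B.

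Genes of adhesion, signalling and growth were also among the lower ones. PCDHB2, a protocadherin of a clustered family of adhesion molecules, was 6.10, 6.24 and 6.34 on the GAS1-high arrays, against 7.69, 7.84 and 7.96 on the unmarked arrays. EPHA7, a receptor of ephrins, was 6.23, 6.18 and 6.36, against 7.34, 7.61 and 7.79. ARHGEF6, an exchange factor of the GTPases RAC1 and CDC42, was 7.21, 7.22 and 7.19, against 8.55, 8.63 and 8.83. Their mean levels were 2.53-fold to 3.03-fold lower. NDN, the growth suppressor necdin, was 6.78, 6.19 and 6.39, against 7.98, 8.06 and 8.09. POF1B, an actin-binding protein of epithelia, was 5.44, 5.23 and 5.91, against 6.63, 6.79 and 7.13. DAPL1, an epithelial protein linked to differentiation, was 7.33, 7.31 and 7.20, against 8.47, 8.74 and 8.95. No GAS1-high array reached the lowest unmarked array for any of these 6 genes.

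TMEM139, which encodes a membrane protein, was 8.01, 7.98 and 8.02, against 9.49, 9.57 and 9.78. Pseudogene transcripts gave large differences as well, and these are uncertain because near-identical copies can share probes. PDCD6P1 was 6.58, 6.40 and 6.79, against 8.75, 8.84 and 8.97, and MEIS3P1 was 9.23, 9.07 and 9.24, against 10.51, 10.58 and 10.71. The probe sets of PDCD6P1, MEIS3P1 and GSAP are the 3 of the 42 whose array names end in _x_at, a mark of probes that can match other transcripts. Names with the ending _s_at, such as those of GAS1, EFEMP1, FABP5, TRIM22 and PLAU, were not counted here, and their probes may be shared between transcripts too. The remaining lower genes, again named after their values were seen, were PLAAT3, PLBD1, EPDR1, CNN3, AOC1, FEZ1, GPX3, PTX3 and QPRT, with differences of -1.29 to -1.003. QPRT and NMNAT2 both encode enzymes of NAD synthesis, and they differed in opposite directions.

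Where a gene had several probe sets, the brightest over the series was used, and the others did not always follow. Of the 42 genes, 21 had 1 probe set. The other 21 had 52 further probe sets, of which 40 had the same sign, 10 were apart as well and 12 had the opposite sign. TM4SF1 differed by 1.13 and 1.31 on 2 further probe sets, GSAP by -2.82 and TMEM139 by -1.56 on their second ones, and EFEMP1 by 2.78 on another. GAS1 itself differed by 0.13 and 0.00 on its 2 dimmer probe sets, which averaged 5.77 and 6.37 over the series, so that the mean of its 3 probe sets differed by 0.89. CALD1 had 10 further probe sets, of which 1 was apart at 1.53, and PDCD6P1 differed by -0.13 on its second one. With the mean of all probe sets of a gene, 11 genes were apart and higher instead of 21, and 19 were apart and lower.

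The 6 further high-TACC3 arrays comprise 3 arrays with ARMCX3 at 4.63 to 4.93 (ARMCX3-off) and 3 arrays with FGFR3 at 11.36 to 11.43 on the brighter probe set, under its cut. By the midpoint between the 2 sides, both of these triplets lay nearer to the unmarked level for 16 of the 42 genes, 12 higher and 4 lower on the GAS1-high side. These included POGLUT3, at means of 4.56 on the ARMCX3-off arrays and 4.54 on the arrays under the FGFR3 cut, FABP5 at 5.02 and 5.29, CALD1 at 6.41 and 5.94, and EPHX4 at 7.31 and 8.37. For 10 genes both triplets lay nearer to the GAS1-high level, 2 higher and 8 lower. EFEMP1 was of this kind, at 8.23 on the ARMCX3-off arrays and 8.56 on those under the FGFR3 cut. So were TMEM139 at 7.61 and 7.59, ARHGEF6 at 7.13 and 7.26, PDCD6P1 at 7.43 and 6.88 and EPHA7 at 5.83 and 6.38.

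For 13 genes the ARMCX3-off arrays lay on the GAS1-high side of the midpoint and the arrays under the FGFR3 cut on the unmarked side, 5 higher and 8 lower. DCP1B was at 5.35 on the ARMCX3-off arrays and 7.56 on those under the FGFR3 cut, and GABRP at 8.62 and 7.58. The midpoint does not show how near a level lay. GSAP, at 6.81 and 7.07, was between the sides, at 5.73 and 8.22, in both triplets. AOC1 was at 9.71 on the arrays under the FGFR3 cut, well above the unmarked mean of 7.55. For 3 genes, IGFBP6, TM4SF1 and POF1B, the arrays under the FGFR3 cut were the triplet on the GAS1-high side of the midpoint instead. With all 12 other high-TACC3 arrays in place of the 6 unmarked ones, 22 genes were apart and higher, 13 of them among the 21, and 8 were apart and lower, 7 of them among the 21. Across the 701 genes, the GAS1-high arrays correlated at 0.927 to 0.938 with the arrays under the FGFR3 cut and at 0.848 to 0.863 with the ARMCX3-off arrays.

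**Figure D3:**
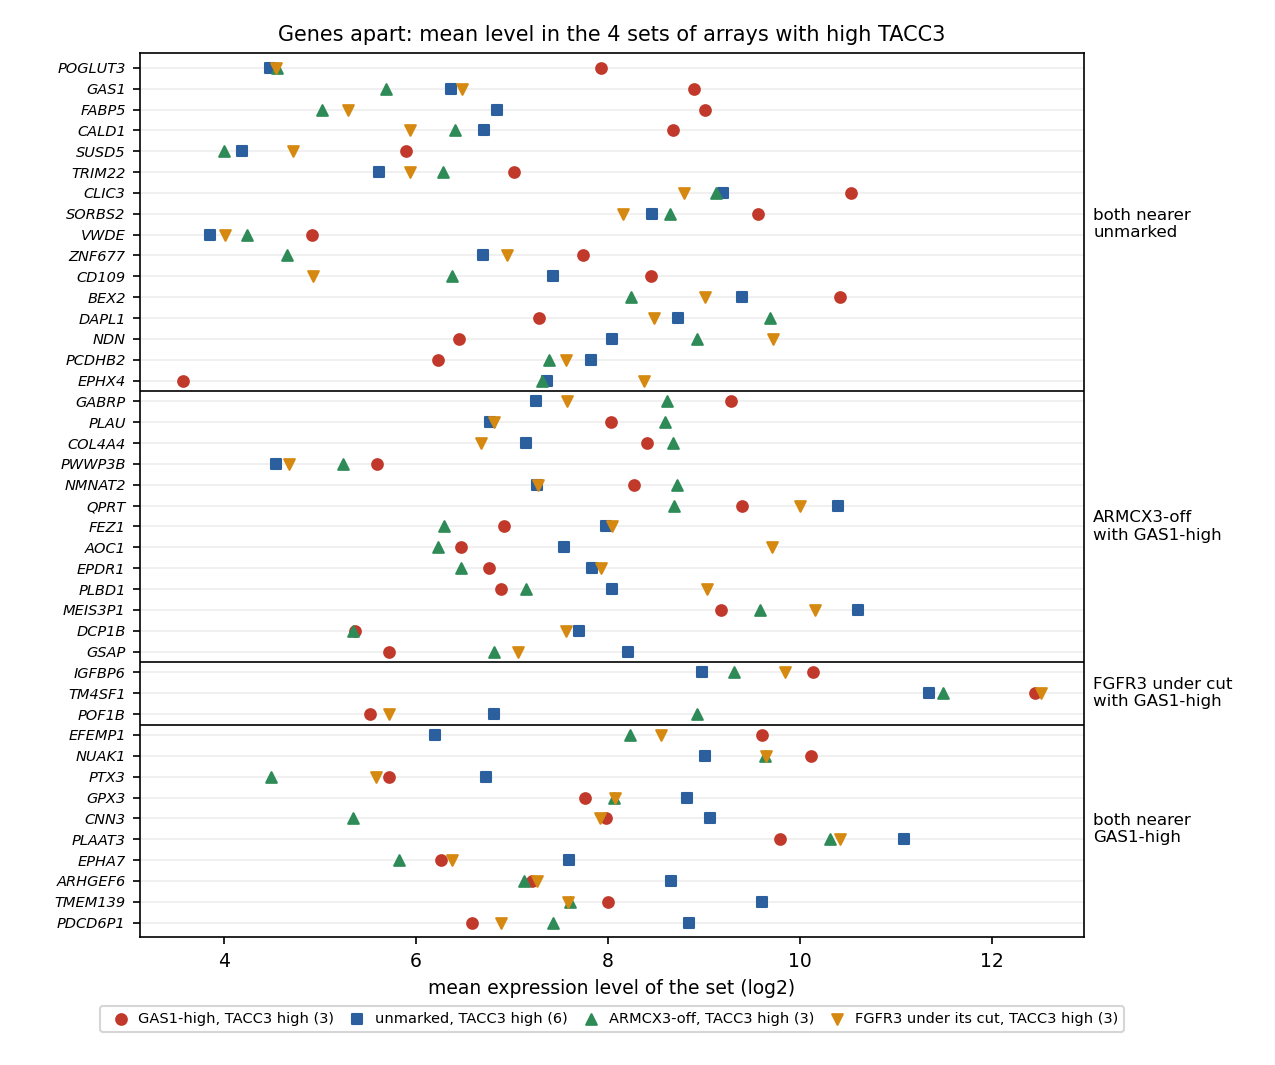
Mean log2 level (horizontal axis) of the 42 genes apart in the 4 sets of arrays with high TACC3, grouped by which side the ARMCX3-off arrays and the arrays under the FGFR3 cut lie nearer to. In the top block of 16 genes both triplets lie nearer to the unmarked than to the GAS1-high mean, and in the bottom block of 10 genes nearer to the GAS1-high mean.

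GAS1 was also high on 3 arrays with low TACC3, labelled EGFP with doxycycline replicate 3, EGFP without doxycycline replicate 1 and 4-1 without doxycycline replicate 2. Their TACC3 level was 11.34 to 11.43 and their GAS1 level 8.95 to 9.47. Set against the 6 other arrays with low TACC3, at a GAS1 level of 5.73 to 6.41, they form a comparison that shares no array with the one above. It too is grouped by GAS1, and it is given in counts with no test. The 6 others are 3 arrays with ARMCX3 at 4.25 to 4.79 and 3 with FGFR3 at 11.13 to 11.34 on the brighter probe set, under its cut, and 0 of them have the levels of the unmarked side. Their background thus differs from that of the unmarked arrays, and the sizes of the differences in the 2 comparisons are not set against each other. In it 41 genes were apart and higher (0.207%) and 17 apart and lower (0.086%). Of the 42 genes, 37 had the same sign in both comparisons. GAS1 had its sign fixed by the grouping, and without it the number was 36 of 41, 19 of 20 higher and 17 of 21 lower ones, while over all genes 42.3% had the same sign. The 5 genes of opposite sign were COL4A4, TMEM139, EPHA7, CNN3 and PTX3. Without GAS1, 13 genes were apart in the same direction in both comparisons, which is 31.7% of the 41 and 22.8% of the 57 apart among the low-TACC3 arrays. Set against the 6 unmarked arrays instead, the GAS1-high arrays with low TACC3 kept the sign for 42 of the 42 genes, the 5 named above included. The unmarked arrays had helped to choose these genes, which favours that count, and they differ in TACC3.

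POGLUT3 was 7.70, 7.46 and 7.34 on these 3 GAS1-high arrays, against a lowest, median and highest level of 4.31, 4.42 and 4.58 on the 6 others with low TACC3. FABP5 was 8.31, 8.29 and 8.26, against 4.85, 5.08 and 5.38. CALD1 was 8.93, 8.62 and 8.60, against 5.84, 6.31 and 7.08. For each of the 3 genes the lowest GAS1-high array lay above the highest of the others. EPHX4 was 4.38, 3.81 and 3.27, against 6.25, 7.02 and 7.97. NDN was 6.22, 6.93 and 7.13, against 9.02, 9.47 and 10.09, and DAPL1 was 7.57, 7.90 and 7.90, against 9.64, 10.55 and 11.24. The GAS1-high arrays lay below all of the others for each of these 3 genes.

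TRIM22 was 9.24, 9.24 and 9.37 on the GAS1-high ones, against 8.63, 9.03 and 9.40 on the others, and these overlapped. EFEMP1 was 9.94, 9.996 and 9.95, against 8.27, 8.81 and 9.45, a difference of 1.11. CD109 was 8.89, 8.97 and 8.81, against 5.11, 6.06 and 6.61, a difference of 2.92. Over the whole series, the 6 GAS1-high arrays lay outside the range of the other 18 for 15 of the 41 genes other than GAS1. The 8 higher ones were POGLUT3, EFEMP1, FABP5, CALD1, SUSD5, CLIC3, CD109 and BEX2. The 7 lower ones were EPHX4, GSAP, PCDHB2, NDN, DAPL1, MEIS3P1 and GPX3. The 41 genes had been chosen for no overlap between GAS1-high and unmarked arrays that are part of this range, which favours such a count. The same count was not made over all genes.

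**Figure D4:**
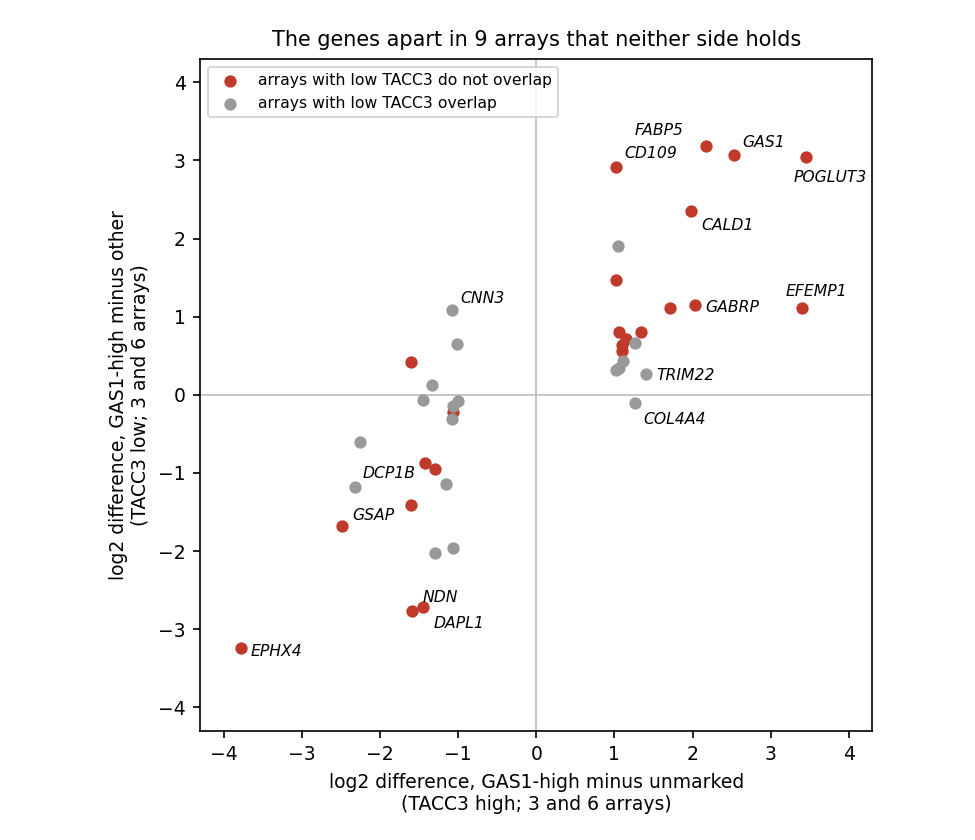
Log2 difference between GAS1-high and unmarked arrays with high TACC3 (horizontal axis) against the log2 difference between GAS1-high and other arrays with low TACC3 (vertical axis) for the 42 genes, coloured by whether the low-TACC3 arrays overlap. Of the 42 points, 37 lie in the quadrants of equal sign, GAS1 among them by the grouping, with POGLUT3 at 3.45 and 3.05 and EPHX4 at -3.78 and -3.24.

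By Pearson correlation with GAS1 across the 24 arrays, the measure of likeness used, POGLUT3 (0.96), CALD1 (0.93), CYS1 (0.92), SUSD5 (0.91) and BEX2 (0.91) were most like it, and GSTM3 (-0.91), AKR1C3 (-0.90), EMB (-0.88), EPHX4 (-0.87) and DLG3 (-0.87) most opposed. The arrays fall into 6 with high and 18 with low GAS1, so that these values describe that split and carry no p. CYS1, which encodes cystin of the primary cilium, was 7.43, 7.15 and 7.49 on the GAS1-high arrays, against 6.57, 6.58 and 6.77 on the unmarked ones. DLG3, a scaffold protein of cell junctions, was 8.79, 8.79 and 8.92, against 9.16, 9.26 and 9.30. Neither of these 2 genes was apart, but both were free of overlap.

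Pathways around GAS1 were read from 32 gene lists of 573 genes, of which 515 were measured, chosen with earlier results of these data known. GAS1, PLAU and FABP5 were the 3 list genes that were apart, and the list medians ran from -0.051 to 0.099, against -0.0013 over all genes. The counts of members free of overlap stand beside shares of 4.33% higher and 3.15% lower over all genes, and members named beyond the 1 that the rule takes from a list were chosen after their values were seen. In the Hedgehog list, 17 of 18 genes were measured and none but GAS1 was free of overlap. The co-receptor CDON was 8.24, 8.01 and 8.21 on the GAS1-high arrays, against 7.99, 8.06 and 8.12 on the unmarked ones, and BOC was 7.75, 7.69 and 7.58, against 7.60, 7.75 and 7.80. PTCH1, the receptor and also a target of the pathway, was 8.75, 8.38 and 8.70, against 8.36, 8.43 and 8.61. GLI1, the transcription factor that the pathway induces, was 6.79, 6.82 and 6.89, against 6.63, 6.79 and 7.03. All 4 overlapped, and the 16 genes besides GAS1 differed by -0.11 to 0.15. None of the 9 measured genes of the GDNF family was free of overlap either.

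In the list of growth arrest genes, 1 of 16 was higher and 2 were lower with no overlap. CDKN1C, an inhibitor of cyclin-dependent kinases, was 7.58, 7.30 and 7.62 on the GAS1-high arrays, against 6.90, 7.09 and 7.14 on the unmarked arrays, and BTG1 and SESN1 differed by -0.09 and -0.10. Genes of DNA replication lay slightly higher, with 21 of 24 above 0, 7 of them free of overlap, and a median of 0.099. RRM2, a subunit of ribonucleotide reductase, was 12.61, 12.60 and 12.75, against 12.43, 12.47 and 12.52. Mitotic genes were above 0 in 22 of 22 cases with a median of 0.081, but 3 of them, MKI67, NUSAP1 and FOXM1, were free of overlap and the highest difference was 0.15. Over all genes, 9770 of 19775 were above 0 and 10005 below. MKI67, the proliferation marker Ki-67, was 10.97, 10.97 and 11.00, against 10.80, 10.82 and 10.86. The array medians were 6.98, 7.07 and 6.99 on the GAS1-high arrays and 7.04 to 7.07 on the unmarked ones. Centring each array on its median raised every difference by the same amount, that of GAS1 from 2.53 to 2.57. This could not turn a list median above 0, so it is no check on the replication and mitotic lists.

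Receptors of growth factors differed little. FGFR2 was 9.84, 9.65 and 9.88 on the GAS1-high arrays, against 9.39, 9.45 and 9.51 on the unmarked arrays, and FGFR4 was 7.28, 7.31 and 7.09, against 7.34, 7.36 and 7.52. EGFR was 11.64, 11.48 and 11.56, against 11.16, 11.31 and 11.39. FGFR2 and EGFR were thus higher and FGFR4 lower on every GAS1-high array, by at most 0.34. With the mean of all probe sets of a gene, FGFR2 differed by 0.08 and EGFR by 0.19. Among genes that report activity of the ERK kinases, 5 of 21 were higher with no overlap and 0 lower, with a list median of 0.034. DUSP6, a phosphatase that ERK induces, was 12.89, 12.90 and 12.90, against 12.68, 12.70 and 12.73. PHLDA1 averaged 11.77 ± 0.039 on the GAS1-high arrays (SD, n = 3), against 11.49 ± 0.092 on the unmarked ones (SD, n = 6). By contrast SPRY2, SPRY4, ETV4 and ETV5, further targets of the pathway, overlapped, with differences of -0.06 to 0.02.

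Markers of urothelial differentiation went both ways. In the list of basal and squamous genes 4 of 14 were higher and 4 lower with no overlap. KRT5, the keratin of basal cells, was 12.45, 12.49 and 12.42 on the GAS1-high arrays, against 11.58, 11.73 and 11.94 on the unmarked ones, and KRT14, its partner in basal cells, was 5.61, 5.96 and 5.49, against 6.07, 6.23 and 6.30. The signals of KRT5 and KRT14 differed in opposite directions. That of KRT14 was low on both sides and may be in part background, so its difference is uncertain. In the luminal list, whose median was -0.0084 and turned to 0.029 with each array centred, 3 of 20 were higher and 3 lower with no overlap. FABP4, a fatty acid carrier, averaged 11.91 ± 0.12 on the GAS1-high arrays (SD, n = 3), against 12.71 ± 0.059 on the unmarked ones (SD, n = 6). UPK2, a uroplakin of the surface cells of the bladder lining, was 8.88, 8.88 and 8.80, against 8.37, 8.49 and 8.68. The carriers FABP5 and FABP4 thus also went opposite ways. ABCG1, a cholesterol exporter, was 7.38, 7.13 and 7.45, against 6.33, 6.54 and 6.66.

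Proteases and matrix genes held 7 of 20 higher and 2 lower with no overlap. MMP10, a stromelysin, was 9.52, 9.21 and 9.71 on the GAS1-high arrays, against 8.55, 8.67 and 8.94 on the unmarked arrays. MMP1, the interstitial collagenase, was 9.26, 9.01 and 9.41, against 8.68, 8.75 and 8.85. PLAT, the tissue plasminogen activator, was 11.95, 11.86 and 11.95, against 12.11, 12.13 and 12.19, so that the 2 plasminogen activators PLAU and PLAT differed in opposite directions. Among interferon-stimulated genes 5 of 22 were higher and 2 lower with no overlap. BST2, which tethers virus particles to the cell, was 7.93, 7.83 and 7.90, against 7.06, 7.14 and 7.21, and IFIT3 was 10.16, 10.05 and 10.20, against 9.67, 9.73 and 9.76. IFI44L was lower, at 6.13, 6.35 and 6.26, against 6.56, 6.70 and 6.93.

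Enzymes that handle foreign or reactive compounds were the list with the most members lower with no overlap, 8 of 20 against 0 higher, with a median of -0.051. GSTM3, a glutathione transferase, was 8.30, 7.89 and 8.16 on the GAS1-high arrays, against 8.73, 8.83 and 8.94 on the unmarked arrays. AKR1C3, an aldo-keto reductase that also acts on steroids and prostaglandins, was 10.20, 9.93 and 10.19, against 10.60, 10.62 and 10.75. CYP24A1, which inactivates vitamin D, was 7.65, 7.45 and 7.72, against 8.08, 8.10 and 8.26. ALDH3A1, an aldehyde dehydrogenase, was 11.38, 11.21 and 11.27, against 11.55, 11.74 and 11.86. None of these 4 reached a 2-fold difference. Of the nuclear genes of the respiratory chain, 16 of 18 were below 0, against 10005 of 19775 over all genes. The list median was -0.039, the largest difference in size was -0.09, of ATP5MC1, and 1 gene was free of overlap. Centring each array on its median brought ATP5MC1 to -0.05. It raised every other difference by the same amount, which is close in size to the list median.

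**Figure D5:**
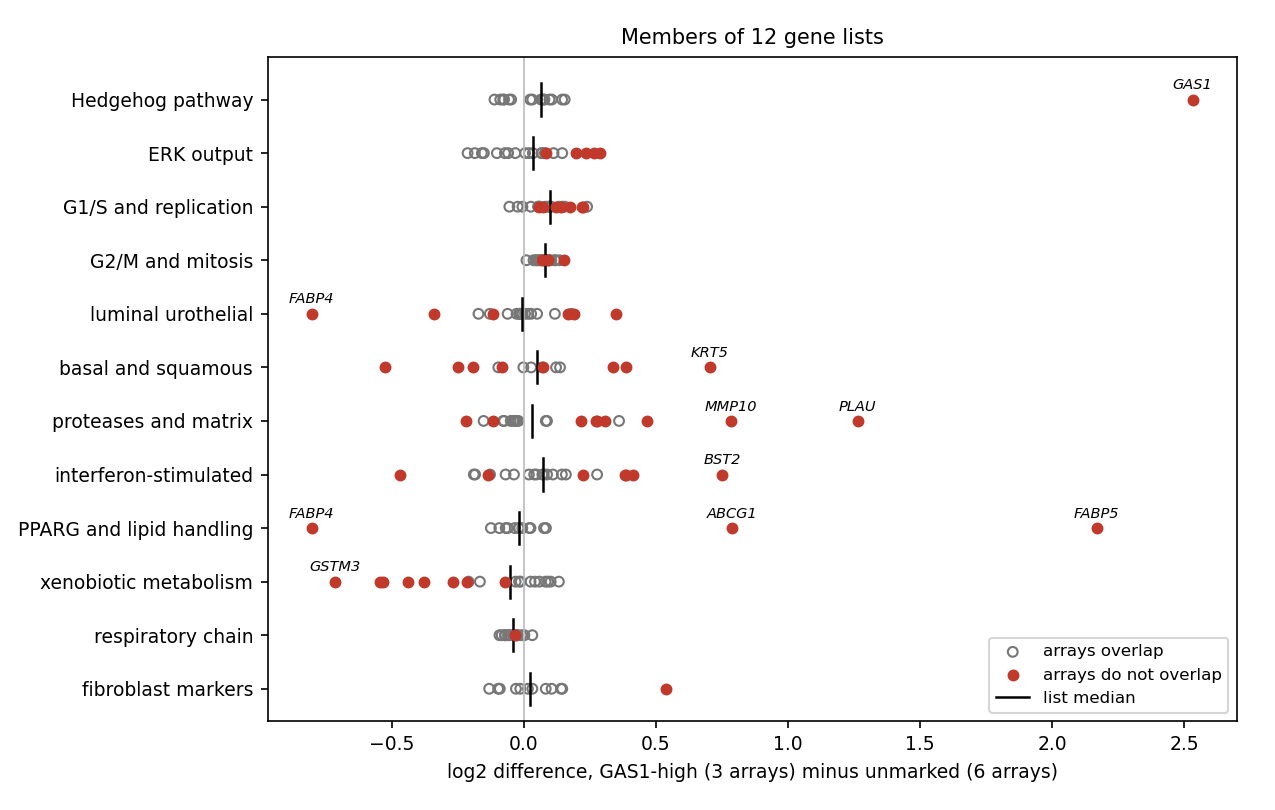
Log2 difference between the GAS1-high and the unmarked arrays (horizontal axis) for each measured member of 12 gene lists (vertical axis), with filled points for members whose arrays do not overlap and a bar at each list's median. GAS1 at 2.53, FABP5 at 2.17 and PLAU at 1.26 are the members beyond 1, while the list medians lie near 0.

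In other lists single genes stood out against the unmarked arrays. DKK1, a secreted WNT inhibitor, was 9.58, 9.22 and 9.56 on the GAS1-high arrays, against 8.68, 8.84 and 9.09 on the unmarked ones. ADM, a peptide hormone that hypoxia induces, was 9.35, 9.17 and 9.40, against 8.57, 8.75 and 8.80. CLDN8, a claudin of tight junctions, was 8.88, 8.54 and 8.94, against 8.13, 8.21 and 8.32. No unmarked array reached a GAS1-high one for any of these 3 genes, and DKK1 and ADM each differed by 0.59. FN1, fibronectin, differed by 0.37, SLC7A5, an amino acid transporter, by 0.34 and CASP1, an inflammatory caspase, by 0.30. HOXB6 differed by -0.25, HLA-DMA by -0.26 and SQLE, an enzyme of cholesterol synthesis, by -0.18, with no overlap in any of them. Against all other high-TACC3 arrays HLA-DMA turned sign to 0.08 and HOXB6 shrank to -0.09, while SQLE differed by -0.19. In the same comparison CLDN8 shrank from 0.56 to 0.07 and DKK1 to 0.34, while ADM differed by 0.79. CLDN8 averaged 9.81 on the ARMCX3-off arrays, above its GAS1-high mean of 8.79. Among the low-TACC3 arrays CLDN8 was lower on the GAS1-high ones, with no overlap.

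The cells had the markers of epithelium on both sides. The 10 epithelial markers had mean levels of 9.64 to 13.96 over these arrays and none was free of overlap. Averaged over the list they were at 12.14 to 12.22 on the GAS1-high arrays, against 12.09 to 12.18 on the unmarked ones. The 12 fibroblast markers averaged 7.83 to 7.94, against 7.79 to 7.85, and COL5A1 was free of overlap at a difference of 0.54, while LUM was bright on both sides, at 13.02, 13.14 and 13.14, against 12.84, 12.97 and 13.07, and overlapped. The 11 measured leukocyte markers averaged 6.88 to 7.05, against 6.94 to 7.06, with none free of overlap. The 8 endothelial markers averaged 6.90 to 6.97, against 6.88 to 6.93, and CDH5 was free of overlap at a difference of 0.51. None of these markers was apart. The excess of 3' over 5' signal of the degradation controls was 0.70 to 0.91 for ACTB, against 0.73 to 0.94, and 0.20 to 0.27 for GAPDH, against 0.23 to 0.27, and both overlapped.

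The 42 genes lay on 17 chromosomes and were not next to each other. The closest pair in the order of the measured genes along a chromosome, EPHX4 and CNN3, were 23 genes apart. Over windows of 40 neighbouring genes the median difference ran from -0.080 to 0.10, and over whole chromosomes without the Y chromosome from -0.016 to 0.029.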

How the data were processed

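RNA of RT112 cells, 3 µg per sample, was hybridised to 24 Affymetrix arrays. The deposited values are log2 levels of 54675 probe sets, made by the authors with RMA from the affy package, per the submitters' processing notes, which give no versions. RMA quantile-normalizes all arrays together, which removes a change shared by most genes. Arrays count no reads, and their number sets the precision. GEO's platform annotation gave 41097 probe sets 1 symbol, 1801 several and 11777 none. Only the first were used, with the brightest probe set per gene, which left 19775 genes. Symbols were checked against RefSeq by Entrez ID (41043 matched, 0 changed).

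The sides follow measured cuts, and members, gene lists and the rule for named genes were chosen with earlier results of these data known. The rule took GAS1, TACC3, FGFR3 and ARMCX3, the 12 largest differences each way, up to 4 apart members of each list or else its largest, and the 5 genes most like and most opposed to GAS1, 61 in all. Differences are means of log2 levels, GAS1-high minus unmarked, computed in Python 3.11.15 with pandas 2.3.3 and scipy 1.17.1, with no filter on low values. No p-value is given for them, because the levels chose the arrays. Labels were tested with Fisher's exact test. The steps were tested on simulated data. Alternatives were the mean of all probe sets, centring each array, another set of arrays to compare with, a filter on low values, other cuts and each array left out.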

Additional observations from a re-analysis of the deposited data

How the results depend on the processing

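With a difference of at least 0.58, 64 genes were apart and higher and 53 apart and lower, and with at least about 3-fold there were 7 and 7. With the mean of all probe sets 11 were higher, all of them among the 21. Against all other high-TACC3 arrays 8 were lower. With each of the 9 arrays left out, 18 to 26 were higher and 19 to 21 lower. The 26 came without the array labelled 6-16 with doxycycline replicate 3, and the 18 without that labelled 4-1 without doxycycline replicate 3. Centring the arrays gave 23 and 19, and a filter at a level of 6 gave 18 and 21. The 37 genes of equal sign among the low-TACC3 arrays stayed at 37 under the alternatives tried. Among the 61 named genes, the difference moved by more than the spread between arrays in 41 against all other high-TACC3 arrays, in 18 with the mean of all probe sets and in 2 with centring. None of the 25 named genes that were apart changed sign under the alternatives tried. Medians of 5 lists, at most 0.018 in size, turned sign with centring, and 4 list medians with the mean of all probe sets. The cause of these changes was not tested. No paired analysis was possible because the sides were chosen by measured levels, all 3 GAS1-high arrays carry the replicate number 3 from different labelled groups, and the comparison has no test.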
